A study of Mus musculus with 10 samples.

Results

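The nuclear genes of respiratory complex I, the NADH dehydrogenase of mitochondria, were followed in brown adipose tissue of wild type (WT) mice and of mice labelled Sirt3 knockout (KO). Sirt3 is a deacetylase of mitochondrial proteins, complex I subunits among them. The members are the genes whose symbol in the platform annotation starts with Nduf. They came to 44 of the 18193 genes tested: 34 subunits, 8 assembly factors (Ndufaf) and the pair Ndufa4 and Ndufa4l2. Each was read by 1 probe set, the one with the highest mean over all 10 arrays.

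Affymetrix expression arrays were made of 5 WT and 5 Sirt3 KO samples, and each array was treated as 1 mouse. Per the labels, the mice were untreated littermates of about 1 year on a 129 background, and both groups share that age and background. The sources used here do not give how Sirt3 was inactivated or in which tissues. Bulk tissue was used, so fewer cells of a type and less RNA per cell cannot be told apart.

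Complex I takes electrons from NADH, passes them along a flavin and a chain of iron-sulfur clusters to ubiquinone, and pumps protons across the inner membrane. Its core subunits of the hydrophilic arm carry out the electron transfer, the accessory subunits surround and stabilise the core, and the assembly factors help to build the enzyme without staying in it. In brown fat the proton gradient that complex I helps to make is turned into heat by Ucp1. Subunits encoded by mitochondrial DNA are not Nduf genes and are not described.

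Sirt3 itself was not lower in arrays labelled KO, at a mean log2 signal of 10.32 ± 0.072 (SD, n = 5) against 10.13 ± 0.099 (SD, n = 5) in WT. An exact two-sided permutation test of these n = 5 against 5 values gave p = 0.016, and the adjusted p of limma was 0.914. A probe set outside the deleted part would not check the labels, so directions refer to arrays labelled KO throughout. The 9 measured brown adipocyte markers had a mean level of 11.33 ± 0.21 (SD, n = 5) in WT and 11.21 ± 0.11 (SD, n = 5) in KO arrays, and 7 of them were lower in KO. Over all arrays Ucp1 was between 13.96 and 14.28, while Prdm16, a regulator of brown fat identity, was between 7.46 and 8.31. The mean of 19 skeletal muscle markers ranged from 7.62 to 11.68 over WT arrays and from 5.67 to 10.85 over KO arrays. All 19 were lower in KO, with list means of 10.06 ± 1.61 (SD, n = 5) in WT and 8.61 ± 2.59 (SD, n = 5) in KO arrays. Of 7 endothelial markers 7 were higher in KO (median 0.16). Lower in KO were 5 of 6 macrophage markers (median -0.18) and 4 of 6 white adipocyte markers (median -0.090). Of all these markers, 0 had an adjusted p under 0.05 by limma. The 3' minus 5' signal of the Pcx control probe sets, a sign of RNA quality, was 2.77 to 2.95 in KO and 2.96 to 3.44 in WT arrays. For the other 4 control transcripts the groups overlapped, and the part of RNA quality in the results was not tested.

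The promoters of these genes hold 2 sequence features that played no part in choosing them. NRF1 and YY1 are transcription factors known to act on nuclear genes of the respiratory chain. Windows from 250 bases before to 50 bases after each gene start (RefSeq, GRCm38.p6) were found for 39 of the 44 members. Ndufa2, Ndufa4l2, Ndufaf6, Ndufb9 and Ndufs1 had no match. The NRF1 motif GCGCNNGCG, searched on both strands, was in 15 of 39 members (38.5%), against 21.6% of the 14367 tested genes with a window and 13.5% of all 27025 genes of the table. The YY1 motif AANATGGC was in 13 of 39 members (33.3%), against 8.09% and 6.96%. In 7 of these 13, among them Ndufa9 and Ndufs7, a match began after the gene start. The estrogen-related receptor motif TCAAGGTCA was in 0 of 39 members, against 0.404% of tested genes. Median GC content was 59.3% in member windows and 58.7% in those of tested genes, and the median number of CG pairs was 20 and 17. No test was made of these shares, and a match is a description of letters, not a site.

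The stretches below show 1 match for each of 6 members whose array values are given further on, written 5′ to 3′ on the strand of the gene, with the motif in capitals. The first 3 hold the NRF1 motif and the last 3 the YY1 motif. Positions count bases from the gene start to the first base of the motif, and are negative before the start. The NRF1 motif of Ndufb1 is at 17 (chr12:101975703-101975732, minus strand), that of Ndufv2 at -17, as overlapping matches (chr17:66101556-66101585, minus strand), and that of Ndufaf5 at 16 (chr2:140170652-140170681, plus strand). The YY1 motif of Ndufa9 is at 29 (chr6:126849097-126849126, minus strand), that of Ndufb8 at 38 (chr19:44555393-44555422, minus strand) and that of Ndufs8 at -165 (chr19:3912921-3912950, minus strand).
Ndufb1: gtcacggcttcCGCCGGCGCcagtggccta
Ndufv2: ggctcgtgaGCGCGCGCGCGCcgtgcgtcc
Ndufaf5: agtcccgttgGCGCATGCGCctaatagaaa
Ndufa9: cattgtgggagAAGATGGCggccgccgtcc
Ndufb8: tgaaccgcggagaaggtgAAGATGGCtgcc
Ndufs8: ctctctgatacAACATGGCagctccctaca

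None of the 44 genes differed between the groups past the threshold. Of the 44 members, 0 had an adjusted p under 0.05 by limma, as did 0 of 18193 genes (0%). Differences (KO minus WT) lay between -0.12 log2 units for Ndufb1, a small accessory subunit of the membrane arm, and 0.082 for Ndufaf5, an assembly factor. At an unadjusted p under 0.05 by limma there was 1 member, Ndufb1, or 2.27%, against 4.68% of all genes. Groups did not overlap in that same member, or 2.27%, against 0.627% of all genes.

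The data bound how large a change could have gone unseen. In 43 of the 44 members the 95% confidence interval of the difference lay within 0.26 log2 units either way. That bound is a rise of 20%, and a fall of somewhat less than 20%. It did so for 11320 of the 18193 genes tested and for 459 of the 660 genes with a mean signal above 11. The same held for 25 of 27 genes of complexes II, III and V and for 13 of 16 of complex IV. The exception among the members was Ndufb4, whose probe set was dim, with an interval of -0.24 to 0.30. The median half-width of the interval was 0.110 for the members and 0.169 for all genes. For complexes II, III and V it was 0.103, and for complex IV 0.108. The spread within groups was small, though not only in complex I. The median SD was 0.048 log2 units for complexes II, III and V and 0.055 for complex IV. It was 0.052 for the 32 subunits with a mean signal above 11, against 0.094 for all 660 genes above that signal. These subunits had mean signals from 11.49 to 13.57, and the highest value on any array was 14.65. Whether differences are compressed near the top of the scale was not tested.

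**Figure D1:**
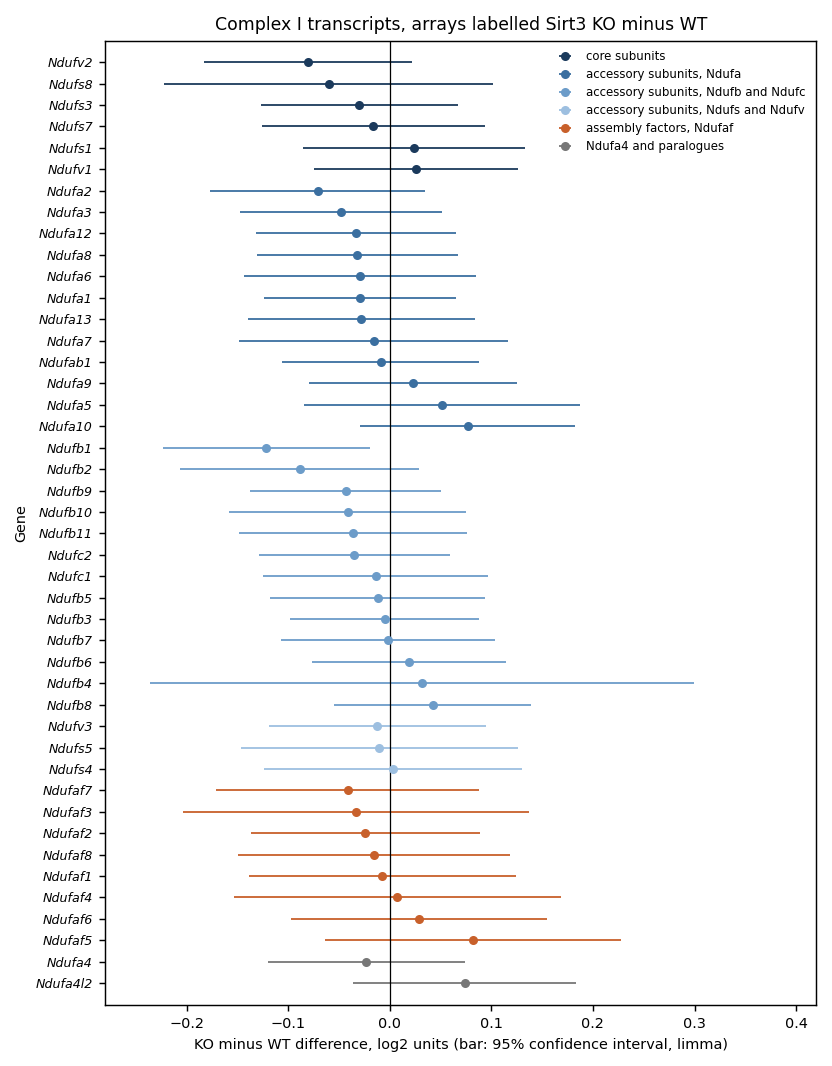
Difference between arrays labelled Sirt3 KO and WT (x axis, log2 units) for each of the 44 Nduf genes (y axis), grouped by role. Points are differences and bars 95% confidence intervals from limma with 5 arrays per group. Every interval but that of Ndufb1 crosses 0, and Ndufb4 has the widest.

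More members were lower than higher in arrays labelled KO, by very little. Of the 44, 31 (70.5%) had a difference below 0, where 56.1% of all genes did. Members are brighter than most genes, with 33 above a mean signal of 11 and 8 from 8 to 11. Of all genes above 11, 61.2% were below 0, and of those from 8 to 11, 59.9%. The median difference was -0.016 log2 units for the members and -0.013 for all genes. It was -0.019 for genes above 11 and -0.023 for those from 8 to 11. Without KO 4 the members lower were 22 of 44, without WT 5 they were 26, and without KO 1 they were 35. When arrays were centred on the genes of complexes II, III and V, the members lower were 13 of 44. That centring moved the median of all genes from -0.013 to 0.019. The list used for it had a mean difference of -0.032 and a median of -0.024. The gene of that list furthest below 0 differed by -0.47, with a confidence interval of -1.73 to 0.79. The median SD in the list was 0.048. How far the centring rests on that gene was not tested. After another quantile normalization the members lower were 26.

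Subunits and assembly factors were at nearly the same place. The median difference was -0.016 for the 34 subunits (25 lower, 9 higher) and -0.012 for the 8 assembly factors (5 lower, 3 higher). Without KO 4 these medians were -0.0031 and 0.0048. The mean deviation of the subunits from their own means over the arrays was 0.0090 ± 0.033 (SD, n = 5) in WT and -0.0090 ± 0.036 (SD, n = 5) in KO arrays. For the assembly factors it was 0.00025 ± 0.039 (SD, n = 5) in WT and -0.00025 ± 0.062 (SD, n = 5) in KO arrays. The subunit mean minus the assembly factor mean was 0.00035, -0.021, -0.021, 0.042 and 0.044 in WT 1 to 5, and -0.062, -0.0045, -0.014, 0.014 and 0.023 in KO 1 to 5. The groups overlapped, and the difference of -0.017 between them was smaller than the SD of 0.032 in WT or 0.033 in KO arrays. It was -0.0041 without KO 1 and 0.0053 without WT 4 and WT 5.

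Some arrays were low or high in most subunits. KO 4 was below the mean over arrays in 32 of 34 subunits and the lowest array in 15 of them. It was also below the mean in 8 of 8 assembly factors. WT 5 was the opposite, below the mean in only 2 of 34 subunits and the highest array in 14. Of the 660 genes with signals above 11, where 32 of the subunits lie, KO 4 was below the mean in 427 and the lowest array in 158, and WT 5 was below the mean in 282 and the highest array in 122. WT 4 was below the mean in 24 of 34 subunits, against 326 of those 660 genes, and in 7 of 8 assembly factors. The assembly factors have lower signals, and over all 18193 genes KO 4 was below the mean in 10028 and WT 4 in 9119.

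Subunit mean deviations were 0.015, -0.0012, -0.0025, -0.027 and 0.061 in WT 1 to 5, and 0.016, -0.010, 0.029, -0.064 and -0.016 in KO 1 to 5. The lowest and the highest array thus carried different labels. The 3 arrays with the lowest mean of muscle markers, KO 3 (5.67), KO 1 (5.94) and WT 5 (7.62), were the 3 with the highest subunit means. KO 1 was among them only narrowly, at 0.016 against 0.015 in WT 1, whose muscle marker mean was 10.89. Over the 32 subunits with a mean signal above 11, WT 1 (0.015) was above KO 1 (0.012), so the match rests on dim probe sets. KO 4, the lowest in subunits, had a muscle marker mean of 10.85, and the other 6 arrays lay between 9.33 and 11.68. Assembly factors were highest in KO 1 (0.078) and KO 3 (0.042). The genes of complexes II, III and V were lowest in KO 1 (-0.062) and KO 3 (-0.029), and were at -0.020 in KO 4 and 0.00016 in WT 5. These are means over a list that holds the highly variable gene at -0.47 (KO minus WT). The part of that gene in them was not tested. In a fit with the muscle mean as a covariate, the median difference was -0.041 for the subunits and -0.023 for the assembly factors, against -0.016 and -0.012 without it. In that fit 33 of 44 members were lower and 0 passed the test.

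**Figure D2:**
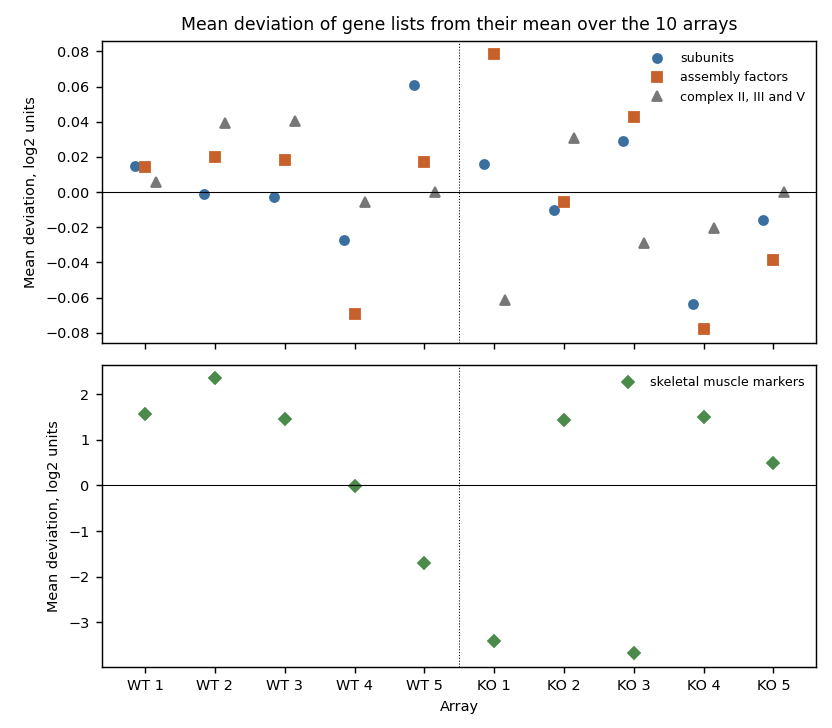
Mean deviation (y axis, log2 units) of the 34 subunits, the 8 assembly factors and 27 genes of complexes II, III and V in the upper panel, and of 19 skeletal muscle markers in the lower panel, for each array (x axis). Each point is the mean over the genes of a list on 1 array. Subunits are lowest in KO 4 and highest in WT 5, KO 3 and KO 1, the 3 arrays in which muscle markers are lowest. KO 1 is barely above WT 1 (0.016 against 0.015), and below it over the 32 subunits with a mean signal above 11 (0.012 against 0.015).

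**Figure D3:**
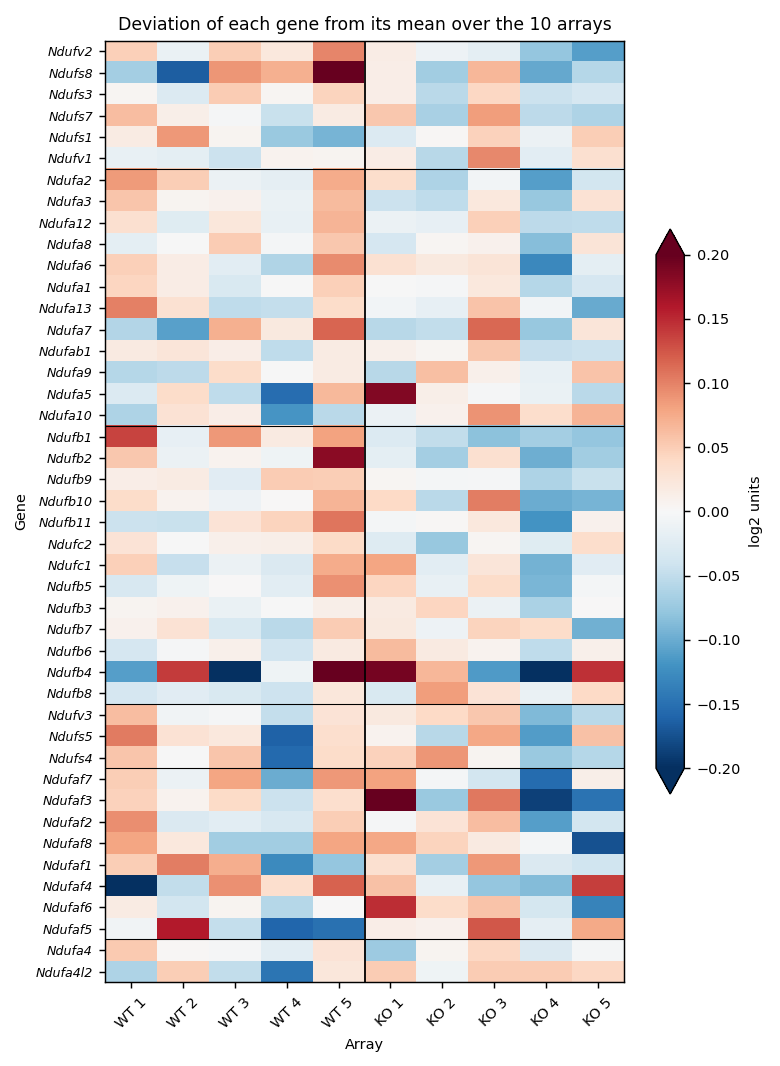
Deviation of each Nduf gene (y axis, grouped by role) from its own mean over the 10 arrays (x axis, WT 1 to 5 and KO 1 to 5), in log2 units on a colour scale that ends at 0.2 either way. The column of KO 4 is below the mean in 32 of 34 subunits, and Ndufb4, Ndufs8 and Ndufaf3 vary most.

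The core subunits, which carry the redox centres, gave 4 of 6 measured members below 0 and a median of -0.023. Ndufv2, which holds an iron-sulfur cluster beside the flavin site, came nearest to a difference among them. Its log2 signals were 13.26, 13.20, 13.26, 13.23 and 13.31 in WT 1 to 5, and 13.22, 13.20, 13.19, 13.13 and 13.10 in KO 1 to 5. WT 2 lay inside the KO range, and the other WT arrays lay above all KO arrays. The difference was -0.081 ± 0.047 (SE, adjusted p of limma 0.914), with -0.026 and -0.058 from its further probe sets. An exact two-sided permutation test gave p = 0.024 for Ndufv2 and p = 0.0079 for Ndufb1, neither adjusted for the number of members.

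Ndufs8, an iron-sulfur subunit next to the ubiquinone site, was among the most variable members. It gave 13.26, 13.16, 13.42, 13.40 and 13.55 in WT 1 to 5, and 13.34, 13.26, 13.39, 13.22 and 13.27 in KO 1 to 5. All KO values lay inside the WT range. The difference was -0.060 ± 0.074, and its 5 further probe sets ran from -0.080 to -0.039. It was 0.018 without WT 4 and WT 5, -0.012 without WT 5 alone, -0.11 without WT 2, and -0.12 ± 0.063 with the muscle covariate.

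The other core subunits were nearer to 0. Ndufs3, a core subunit near the ubiquinone site, differed by -0.030 ± 0.044, and Ndufs7, which holds the last iron-sulfur cluster before ubiquinone, by -0.016 ± 0.050. Both signs turned when arrays were centred on complexes II, III and V. Ndufs1, the largest iron-sulfur subunit, differed by 0.024 ± 0.050 (-0.024 without WT 4 and WT 5), and Ndufv1, the flavin subunit that binds NADH, by 0.026 ± 0.046.

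Among the accessory subunits named Ndufa, 9 of 12 were below 0, with a median of -0.029. Ndufa2, of the hydrophilic arm, gave 12.17, 12.13, 12.07, 12.07 and 12.16 in WT 1 to 5, and 12.12, 12.02, 12.08, 11.97 and 12.05 in KO 1 to 5. KO 1 and KO 3 lay inside the WT range, and the difference was -0.071 ± 0.048.

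Ndufa10, an accessory subunit with a fold like that of nucleoside kinases, went the other way. It gave 13.25, 13.34, 13.32, 13.19 and 13.26 in WT 1 to 5, and 13.30, 13.32, 13.40, 13.35 and 13.38 in KO 1 to 5. WT 2 and WT 3 overlapped the KO arrays, and the difference was 0.076 ± 0.048, against -0.0055 from a dimmer probe set.

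Ndufa9, an accessory subunit reported to be a partner of SIRT3, showed no difference beyond its spread. Its values were 12.78, 12.78, 12.87, 12.83 and 12.85 in WT 1 to 5, and 12.78, 12.89, 12.84, 12.82 and 12.89 in KO 1 to 5. The groups overlapped almost fully. The difference was 0.023 ± 0.046, with a 95% confidence interval of -0.079 to 0.12.

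Of the accessory subunits named Ndufb and Ndufc, which lie in the membrane arm, 10 of 13 were below 0, with a median of -0.014. Ndufb1 gave 7.30, 7.15, 7.25, 7.18 and 7.24 in WT 1 to 5, and 7.13, 7.11, 7.08, 7.09 and 7.08 in KO 1 to 5. Every KO value lay below every WT value, though the gap between WT 2 and KO 1 was narrow. The difference was -0.12 ± 0.046, with an unadjusted p of 0.023 and an adjusted p of 0.914 by limma, and alternatives gave adjusted p from 0.557 to 0.999. The unadjusted p was no longer under 0.05 without WT 1, without WT 3, with replicate number as a block, and with arrays centred on complexes II, III and V, where Ndufa10 was the 1 member under it. Its only probe set had a mean signal of 7.16, above the array medians of 5.58 to 5.61. That was far below the 11.49 to 13.57 of the 32 subunits with a mean signal above 11, and among subunits only Ndufb4 was dimmer. The groups overlapped after another quantile normalization and after centring on complexes II, III and V, and the difference was -0.10 to -0.14 when single arrays were left out.

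Ndufb2 gave 11.85, 11.79, 11.81, 11.79 and 11.98 in WT 1 to 5, and 11.78, 11.73, 11.83, 11.70 and 11.73 in KO 1 to 5. KO 3 lay inside the WT range. The difference was -0.089 ± 0.054, while a dim probe set of the gene (mean signal 6.37) gave 0.16.

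Ndufb8 gave 13.20, 13.21, 13.20, 13.19 and 13.25 in WT 1 to 5, and 13.20, 13.31, 13.26, 13.22 and 13.27 in KO 1 to 5. The groups overlapped, with a difference of 0.042 ± 0.044. Its second probe set, with a mean signal of 7.46, gave -0.18.

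Ndufb4 was read by a probe set with a mean signal of 4.80, below the array medians, and it had the largest spread. It gave 4.69, 4.94, 4.42, 4.79 and 5.08 in WT 1 to 5, and 4.99, 4.86, 4.68, 4.59 and 4.94 in KO 1 to 5. The groups overlapped, with a difference of 0.032 ± 0.12 that changed sign under some alternatives. Its other probe sets are shared with Ndufb4b and Ndufb4c and were left out. Accessory subunits named Ndufs or Ndufv (Ndufs4, Ndufs5 and Ndufv3) differed by 0.0034, -0.010 and -0.012.

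**Figure D4:**
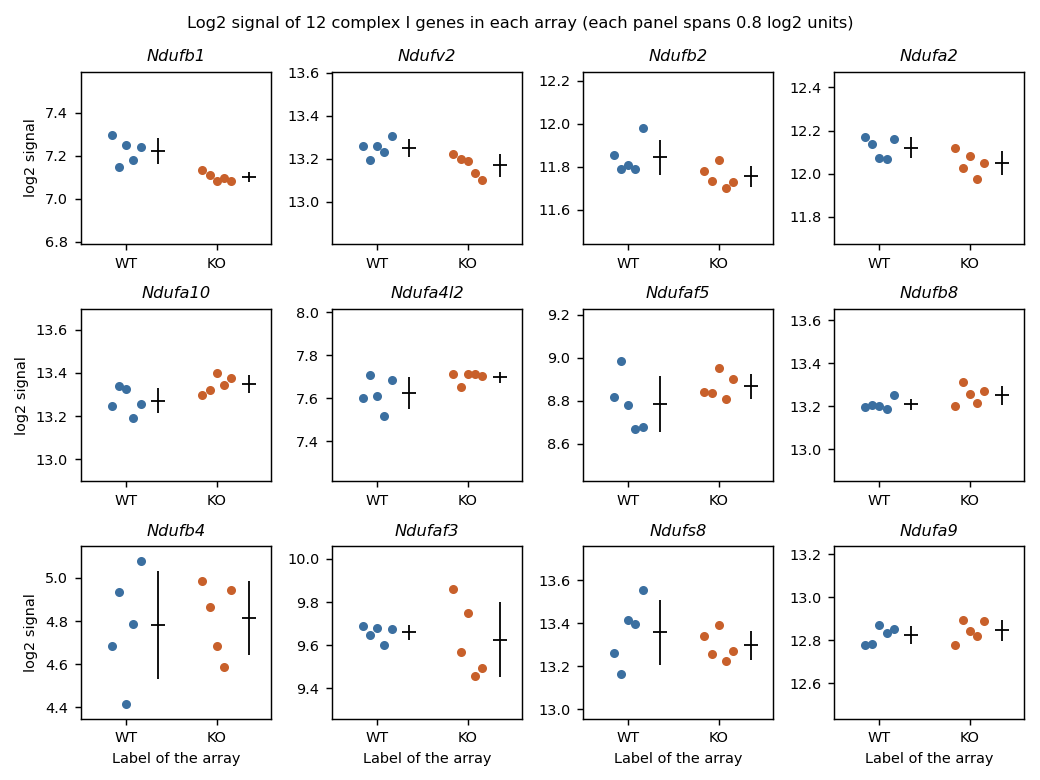
Log2 signal (y axis) in each WT and KO array (x axis) for the 12 Nduf genes with values given in every array. Points run from replicate 1 to 5 within a group, and the mark beside them is the mean ± SD of 5 arrays, with each panel spanning 0.8 log2 units. Only for Ndufb1 do the groups not overlap.

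The assembly factors were all measured, and none differed beyond its spread. Ndufaf5, which hydroxylates the core subunit Ndufs7, gave 8.82, 8.98, 8.78, 8.67 and 8.68 in WT 1 to 5, and 8.84, 8.83, 8.95, 8.81 and 8.90 in KO 1 to 5. WT 2 was the highest array of all and WT 1 lay just inside the KO range. The difference was 0.082 ± 0.066, and 0.13 without WT 2 and 0.0062 without WT 4 and WT 5.

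Ndufaf3, which acts early in assembly together with Ndufaf4, gave 9.69, 9.65, 9.68, 9.60 and 9.68 in WT 1 to 5, and 9.86, 9.57, 9.75, 9.46 and 9.49 in KO 1 to 5. The KO arrays lay on both sides of the WT range, with an SD of 0.17 against 0.036. The difference was -0.033 ± 0.078. It was 0.0091 without KO 4, -0.00041 without KO 5, -0.092 without KO 1 and -0.097 ± 0.066 with the muscle covariate.

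The other assembly factors lay close to 0. Ndufaf1, of the complex that builds part of the membrane arm, differed by -0.0073 ± 0.060, and Ndufaf4 by 0.0074 ± 0.073. Ndufaf2, a chaperone of late assembly, differed by -0.024 ± 0.051 and Ndufaf6 by 0.029 ± 0.057. Ndufaf7, a methyltransferase, differed by -0.042 ± 0.059, and Ndufaf8, a partner of Ndufaf5, by -0.016 ± 0.061. The signs of Ndufaf1, Ndufaf2, Ndufaf4, Ndufaf6 and Ndufaf8 turned under some alternatives. Assembly factors had mean signals of 8.37 to 10.18 and a median SD of 0.085, against 0.118 for all genes with signals from 8 to 11.

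Assembly factors without an Nduf name, from a list of 11, were below 0 in 7 and above 0 in 4, with a median of -0.029. Of these, 0 passed the test and 1 (9.09%) had an unadjusted p under 0.05, against 4.68% of all genes. That was Ecsit, a partner of Ndufaf1, at -0.14 ± 0.061 (SE, adjusted p of limma 0.914). Tmem70, which also serves ATP synthase assembly, differed by -0.090 ± 0.056.

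Ndufa4, first described in complex I and now placed with cytochrome c oxidase, differed by -0.023 ± 0.044, or 0.0088 with arrays centred on complexes II, III and V. Its paralogue Ndufa4l2 is known as a gene induced by HIF1, the hypoxia factor named in the title of the study. It gave 7.60, 7.71, 7.61, 7.51 and 7.68 in WT 1 to 5, and 7.71, 7.65, 7.71, 7.71 and 7.70 in KO 1 to 5. WT 2 and WT 5 lay inside the KO range, and the spread was smaller in KO (SD 0.026) than in WT (SD 0.076) arrays, which was not tested. The difference was 0.074 ± 0.050, with a 95% confidence interval of -0.036 to 0.18.

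Beside the other respiratory complexes, these genes did not stand out in direction. Of 27 measured genes of complexes II, III and V, 19 were below 0 with a median of -0.024, and of 16 of complex IV, 13 were below 0 with a median of -0.025. In these lists 0 genes passed the test, and no difference between complexes was tested.

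Probe sets of the same gene mostly gave differences of the same sign. The 22 members with more than 1 probe set had 44 further ones, of which 9, in 8 genes, had the opposite sign. Of these 44, 26 had mean signals above 11, and none of those 26 had a KO minus WT difference beyond 0.080 in size. That bound is a distance from 0, not from the probe set used. For Ndufa5 the probe set used gave 0.051 and a further one, with a mean signal of 11.43, gave -0.056. Of the 44, the furthest from 0 was a probe set of Ndufab1, the mitochondrial acyl carrier protein. It had a mean signal of 8.44 and a difference of 0.20, while the one used gave -0.0088.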

How the data were processed

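Expression was measured in brown adipose tissue with 5 WT and 5 Sirt3 KO arrays. The deposited values are log2 signals per probe set, made with RMA per the submitters' processing notes; the sources used here give neither its software nor its settings. RMA makes array distributions alike, so a shift shared by most transcripts would not be seen, and it gives no detection call. Array medians were 5.58 to 5.61, and the number of arrays limits the precision.

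Of 45101 probe sets, 64 controls, 932 with several genes and 9160 with none were left out. The remaining 34945 gave 18193 genes, each read by the probe set with the highest mean. Nduf genes read only by shared probe sets (8, among them Ndufa11 and Ndufs6) were left out. Each difference (KO minus WT) and its standard error come from limma 3.58.1 (lmFit, eBayes; R 4.3.3) without covariates, tested two-sided. The Benjamini-Hochberg adjustment ran over all 18193 genes, with calls at an adjusted p under 0.05. The fit was tested on simulated data with independent noise and differences larger than any of the members. That does not show what it finds at their size. Single values were compared by exact permutation over 252 splits. Figures were drawn with matplotlib 3.10.9.

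The members, lists, rules and alternatives were chosen with earlier results of these data known. Array values are given for the 4 members per direction with the smallest unadjusted p, members whose groups do not overlap, the 3 with the highest SD within groups, Ndufa9 and Ndufa4l2. Differences are given for core subunits, assembly factors, Ndufa4 and the 2 other assembly factors with the smallest p, and other values were added after they were seen. Alternatives were other normalizations, a filter on dim genes, variance models, array weights, probe set choices, a replicate block, a muscle covariate and left-out arrays. The labels do not say that replicate numbers pair mice.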

Additional observations from a re-analysis of the deposited data

Results flagged for a closer look

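Samples far from the rest of their group were sought in 58 groups of 5 arrays (25 named genes, Sirt3 and 3 list values, in WT and KO), where chance marks about 1 in 20 groups, and 3 were found. The mean deviation of the assembly factors was -0.069 in WT 4, against 0.014 or more in the other WT arrays. Ndufa4l2 was 7.65 in KO 2, below the other KO arrays, the nearest of which was at 7.70. Ndufb8 was 13.25 in WT 5, above the other WT arrays, the nearest of which was at 13.21.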

How the results depend on the processing

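The count of genes with an adjusted p under 0.05 was 0, over all genes and Nduf members, in each of the 23 alternatives. Of all genes, 851 had an unadjusted p under 0.05. Every p in this section is of limma. The number of members at an unadjusted p under 0.05 went from 1 to 0 with the replicate block, and to 2 with a variance trend, with the probe set of highest variance, with _s_at, _x_at and _a_at probe sets left out (35 members) and with the muscle covariate; leaving out single arrays gave 0 to 2. Of all genes, 4.68% were under that p, and 8.77% with the muscle covariate, 7.79% without WT 2 and 4.05% with the block. With centring on complexes II, III and V the count stayed 1 but the member was Ndufa10 in place of Ndufb1. The replicate block left the other calls as they were. Same-numbered WT and KO arrays had correlations of deviations from -0.40 to 0.24, and none of the 5 WT arrays correlated best with its own number. The median of the subunits ranged from -0.038 to -0.0031 without single arrays, and that of the assembly factors from -0.035 to 0.0048.

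Of the 25 named genes, 11 kept their sign in every alternative in which they were measured. Signs turned as follows, and the cause was not tested. With arrays centred on complexes II, III and V: Ndufa4 0.0088, Ndufaf1 0.025, Ndufaf2 0.0080, Ndufaf8 0.016, Ndufs3 0.0018 and Ndufs7 0.016. After quantile normalization: Ndufaf1 0.014 and Ndufaf8 0.0076. With array weights Ndufaf4 was -0.0028, and with the muscle covariate it was -0.012 and Ndufb4 -0.013. With the mean of all probe sets: Ndufaf4 -0.0076, Ndufb2 0.00047 and Ndufb8 -0.069. With the probe set of highest variance, and without _s_at, _x_at or _a_at, Ndufb2 was 0.16 and Ndufb8 -0.18. Without WT 4 and WT 5: Ndufs1 -0.024 and Ndufs8 0.018. Without single arrays the ranges were -0.040 to 0.017 for Ndufaf1, -0.043 to 0.00045 for Ndufaf2, -0.092 to 0.0091 for Ndufaf3, -0.045 to 0.038 for Ndufaf4, -0.0045 to 0.066 for Ndufaf6, -0.037 to 0.026 for Ndufaf8 and -0.060 to 0.11 for Ndufb4.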
